A study of Mus musculus with 6 samples.

Results

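The 38 genes described here make cholesterol and fatty acids, or set how much of their enzymes a cell makes. They were read in differentiated mouse neural progenitor cells that express the G392E variant of neuroserpin (G392E-NS) or green fluorescent protein (GFP). The members were named by symbol, and a member had to reach 30 counts summed over the 6 libraries, which all 38 of the 38 did, out of 39179 genes in the count table. There are 19 members of the sterol arm, 14 of the lipogenic arm and 5 regulators. Acacb, the mitochondrial acetyl-CoA carboxylase, had 45 counts in all and fell under the filter for low counts, so 37 members were tested.

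Both groups are cultures of CD1 mouse cells taken from the cerebral cortex at stage E13.5 that stably express 1 introduced protein and were differentiated, with 3 libraries for G392E-NS and 3 for GFP. Neuroserpin is a serine protease inhibitor of neurons, and the G392E variant forms polymers in the endoplasmic reticulum and underlies an inherited dementia. The labels do not give the vector, its promoter, the number of clones, or the species of the introduced neuroserpin. They also do not say whether the libraries of a group came from separate cultures, so the p-values measure the spread between these libraries, which may be technical. Cells with wild-type neuroserpin were not analysed here.

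Both arms are switched on by the sterol regulatory element binding proteins (SREBPs), factors that sit in the endoplasmic reticulum membrane until SCAP escorts them to the Golgi, where they are cut and released. INSIG proteins hold SCAP back when sterols are plentiful. SREBP2, from Srebf2, mainly drives cholesterol synthesis and uptake, and SREBP1, from Srebf1, mainly drives fatty acid synthesis and desaturation. Brain cells make almost all of their own cholesterol, with astrocytes supplying much of it to neurons, and Scd2 is the main stearoyl-CoA desaturase of the mouse brain.

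The libraries held between 15507487 and 24835835 counts, and 13775 genes passed the filter. Levels are given as CPM, counts relative to library size scaled by TMM factors. With edgeR's quasi-likelihood test and a Benjamini-Hochberg adjusted p under 0.05 over all genes tested, 660 genes or 4.79% were higher and 187 genes or 1.36% were lower in G392E-NS. The 38 members together took 1.29%, 2.11% and 1.16% of all counts in G392E-NS libraries 1 to 3, against 1.03%, 0.740% and 1.09% in GFP libraries 1 to 3. Scd2 alone took 0.523%, 1.002% and 0.480% in G392E-NS, against 0.367%, 0.262% and 0.417% in GFP. Library 2 of G392E-NS thus had the highest share and library 2 of GFP the lowest.

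Against the background of 4.79% of all genes called higher and 1.36% called lower, 1 of 37 members was called higher, the elongase Elovl5, and 0 were called lower. At an unadjusted p under 0.05, 13 of 37 members were higher and 0 lower, while over all 13775 genes 1980 were higher and 1110 lower. The number called was sensitive to the method. With DESeq2 in place of edgeR, 10 members passed, all higher, where 7.87% of all genes were called higher, and with no filter for low counts edgeR called 10, where it called 5.20% of all genes higher. Without G392E-NS library 1, 6 members passed beside 7.04% of all genes, and limma-voom called 1, again Elovl5. The median log2 fold change of G392E-NS over GFP was 0.42 for the sterol arm, 0.26 for the lipogenic arm and 0.32 for the regulators, against −0.0047 for all genes tested. The group differences of 35 of 37 members were thus above 0, while 1 passed in edgeR after adjustment over all genes tested. In bulk RNA, fewer cells of a type and less RNA per cell cannot be told apart.

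**Figure D1:**
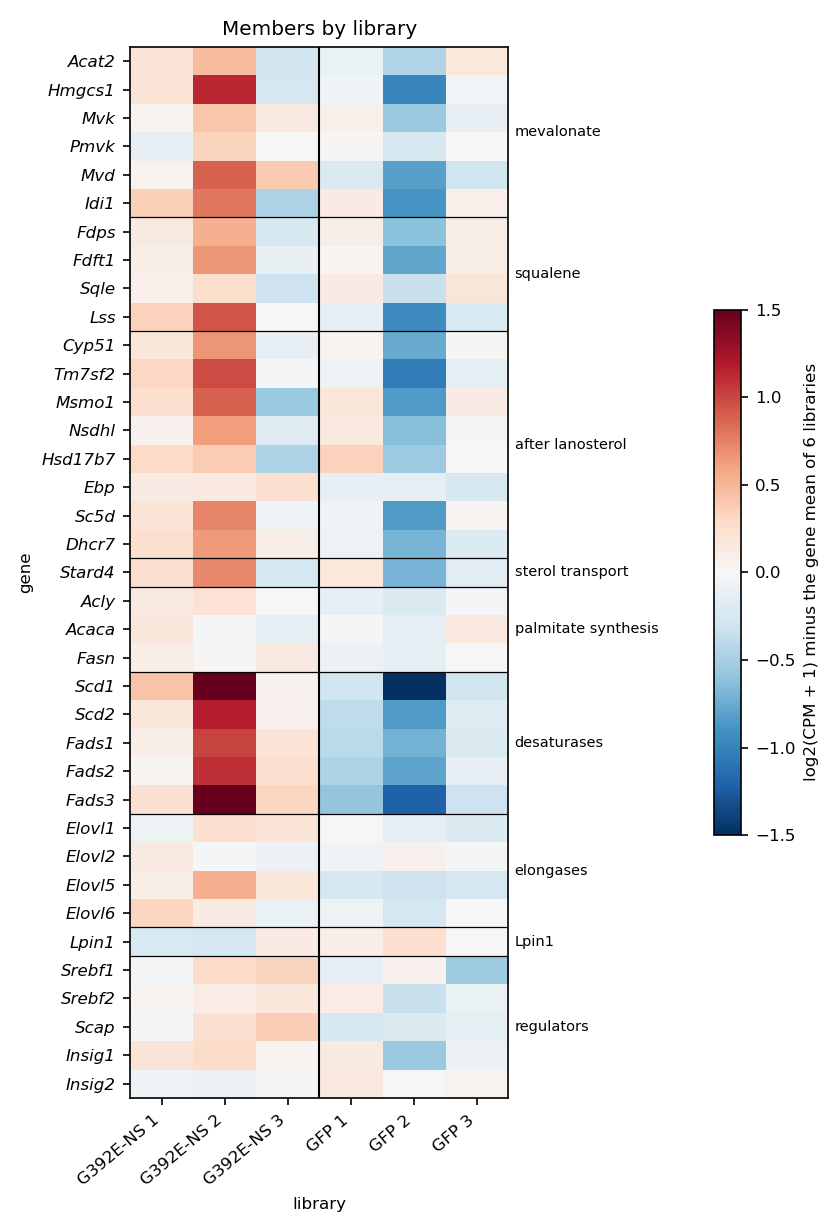
Level of each of the 37 members tested (rows, grouped by role) in each library (columns, G392E-NS left of GFP), as log2(CPM + 1) minus the gene's mean over the 6 libraries, with colours ending at 1.5 either way. Library 2 of G392E-NS is the highest and library 2 of GFP the lowest in 18 of the 19 sterol members and in all 5 desaturases, while Acaca and Fasn show little colour in any library.

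The sterol arm moved between libraries as a block. CPM values were highest in G392E-NS library 2 and lowest in GFP library 2 for 18 of 19 sterol members, or 94.7%, a pattern held by 9.23% of all genes. Ebp was the exception. The median ratio of library 2 to the mean of the other libraries of its group was 1.57 in G392E-NS and 0.610 in GFP, against 1.003 and 0.995 over all genes. All 19 fold changes were above 0, yet 5 of 19 members had groups that did not overlap, all higher in G392E-NS (Mvd, Lss, Tm7sf2, Ebp and Dhcr7), where 15.7% of all genes had such groups. G392E-NS library 3 lay below the highest GFP library for 13 of 19 members and G392E-NS library 1 for 6, while G392E-NS library 2 did so for 0. Of all 13775 genes, 8647 lay so in G392E-NS library 3, 9492 in library 1 and 8689 in library 2.

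The 6 enzymes of the mevalonate pathway build the isoprene units from acetyl-CoA. Hmgcs1, the cytosolic HMG-CoA synthase (ENSMUSG00000093930, GRCm38 chromosome 13, 119690379 to 119708260), had 1613, 3072 and 1177 CPM in G392E-NS libraries 1 to 3, against 1339, 712 and 1359.7 CPM in GFP libraries 1 to 3. The groups overlapped, since G392E-NS library 3 was below 2 of the GFP libraries, and at a log2 fold change of 0.78 (SE 0.37) it missed the threshold (edgeR adjusted p = 0.266). Mvd, mevalonate diphosphate decarboxylase, had 60.0, 107 and 76.1 CPM in G392E-NS, against 49.3, 32.5 and 46.8 CPM in GFP. Each of its G392E-NS libraries was above each GFP library, and at a log2 fold change of 0.92 (SE 0.23) it missed the threshold narrowly, with an edgeR adjusted p of 0.0566. The other members of this stretch, Acat2, Mvk, Pmvk and Idi1, had log2 fold changes of 0.15 to 0.49 and groups that overlapped. For Acat2, 39.1% of all windows of 50 bases in its transcripts also occur in transcripts of Acat3, and for Idi1 17.7% occur in the pseudogene Gm13502 and others, so that their counts are uncertain.

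Squalene is made and cyclised by 4 members, with log2 fold changes of 0.02 to 0.88. Fdft1, squalene synthase, had 127, 189 and 109.6 CPM in G392E-NS, against 121, 68.8 and 127 CPM in GFP. Its groups overlapped, and the log2 fold change of 0.42 (SE 0.27) had an edgeR adjusted p of 0.384. Its exons share 774 bases with Ctsb on the opposite strand, and whether counting used strand is not given, so reads of the pair cannot be told apart there. Sqle, squalene epoxidase and a rate-limiting step of the pathway, had 274, 314 and 209.6 CPM in G392E-NS, against 284, 206 and 296 CPM in GFP. Its 2 higher GFP libraries were above 2 of the G392E-NS libraries, and its log2 fold change of 0.02 had a 95% interval of −0.40 to 0.44 (edgeR adjusted p = 0.957). Lss, which closes squalene epoxide into lanosterol, had 205, 311 and 159.6 CPM in G392E-NS, against 147.5, 83.4 and 137 CPM in GFP. Its groups did not overlap, and its log2 fold change of 0.88 (SE 0.28) had an edgeR adjusted p of 0.110. Fdps, which joins isoprene units into farnesyl diphosphate, had a log2 fold change of 0.29, with 26.2% of its 50-base windows found in other genes.

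After lanosterol, 8 members trim and reduce the sterol, and their median log2 fold change was 0.45. Dhcr7, which makes cholesterol in the last step of 1 branch, had 129.7, 171 and 117 CPM in G392E-NS, against 104, 67.4 and 94.5 CPM in GFP. The groups did not overlap, and its log2 fold change of 0.65 (SE 0.19) had an edgeR adjusted p of 0.0887. Tm7sf2, a sterol reductase, had the highest fold change of these 8 at 0.87 on the log2 scale (SE 0.32, edgeR adjusted p = 0.159). Its exons overlap those of Vps51 by 532 bases on the same strand. Ebp, the sterol isomerase, was the member without the library 2 pattern, with 8.48, 8.61 and 9.33 CPM in G392E-NS and 7.03, 6.88 and 6.37 CPM in GFP. Its log2 fold change of 0.38 (SE 0.15) had an edgeR adjusted p of 0.175. Ebp and Nsdhl lie on chromosome X, and Xist, the RNA that silences an X chromosome, had 1494 ± 345 CPM in G392E-NS and 1.51 ± 0.0831 CPM in GFP (SD, n = 3 each). Each G392E-NS library had at least 1156 CPM of Xist and each GFP library at most 1.56 CPM. This difference thus runs along with the introduced protein in every comparison of the groups. What it reflects was not tested. Its part in the values of these 2 genes, or of any other gene, cannot be told apart from that of the introduced protein. Stard4, a carrier of cholesterol between membranes, had a log2 fold change of 0.49 and followed the pattern of library 2.

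Promoter sequences were read from RefSeq (GRCm38.p6) as the 250 bases before each listed start of a gene, for the 31 of 38 members that the table holds. Some members have more than 1 listed start, while each gene shown here has 1. They are shown for Hmgcs1 and Mvd, which stand for a sterol arm that moved as a block, and for Elovl5, the 1 lipogenic member that passed the test, and Fasn, one of the 12 that did not. Capitals mark a sterol regulatory element, TCACNCCAC, to which SREBPs bind, and CCAAT boxes, to which the partner factor NF-Y binds. Both were searched on either strand, so that a CCAAT box also appears as ATTGG, and in Fasn the 2 forms overlap. Hmgcs1 lies on the plus strand (chr13:119690101-119690350), Mvd on the minus strand (chr8:122443423-122443672), Elovl5 on the plus strand (chr9:77917115-77917364) and Fasn on the minus strand (chr11:120824548-120824797).
Hmgcs1: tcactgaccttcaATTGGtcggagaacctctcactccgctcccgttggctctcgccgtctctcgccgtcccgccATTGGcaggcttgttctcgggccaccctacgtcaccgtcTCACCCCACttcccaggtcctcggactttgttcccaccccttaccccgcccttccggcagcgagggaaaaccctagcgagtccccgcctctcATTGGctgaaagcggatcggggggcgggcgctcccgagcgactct
Mvd: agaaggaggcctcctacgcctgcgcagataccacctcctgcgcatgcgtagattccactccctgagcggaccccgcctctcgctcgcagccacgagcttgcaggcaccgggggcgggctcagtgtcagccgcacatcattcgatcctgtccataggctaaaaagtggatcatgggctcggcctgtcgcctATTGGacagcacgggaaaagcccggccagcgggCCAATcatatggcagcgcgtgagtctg
Elovl5: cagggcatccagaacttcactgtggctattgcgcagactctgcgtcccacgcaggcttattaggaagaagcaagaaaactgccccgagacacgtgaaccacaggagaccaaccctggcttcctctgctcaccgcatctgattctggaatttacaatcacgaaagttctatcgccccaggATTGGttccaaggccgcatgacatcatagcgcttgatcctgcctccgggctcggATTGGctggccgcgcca
Fasn: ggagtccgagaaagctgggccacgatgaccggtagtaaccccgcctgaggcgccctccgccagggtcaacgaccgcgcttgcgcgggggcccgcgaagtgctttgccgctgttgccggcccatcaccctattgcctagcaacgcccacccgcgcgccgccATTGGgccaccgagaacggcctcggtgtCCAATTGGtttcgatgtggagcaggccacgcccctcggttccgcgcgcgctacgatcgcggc

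A motif was counted for a gene when the window of any of its listed starts held it. Some of these windows lie inside the annotated gene, as do those with the CCAAT boxes of Dhcr7, Tm7sf2 and Acacb. Others reach partly into it, such as those of Msmo1, Cyp51 and Idi1. The element TCACNCCAC occurred in 1 of the 31 members, Hmgcs1, where it begins 137 bases before the start, and in 1.22% of 27025 genes. A CCAAT box was found in 14 of 15 sterol promoters, the exception being Acat2, and in 5 of 11 lipogenic and 4 of 5 regulator promoters, against 37.5% of all genes. The GC box GGGCGG, a binding site of Sp1, was found in 14 of 15 sterol, 5 of 11 lipogenic and 5 of 5 regulator promoters, against 35.4% of all genes. The E box CACGTG was found in 3 of 15 sterol promoters, 1 of 11 lipogenic and 2 of 5 regulator promoters, against 6.86% of all genes. These matches describe the letters of the windows and are not measured binding.

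The lipogenic arm did not move as 1 block. In 8 of its 13 tested members the groups did not overlap, all higher in G392E-NS (Acly, Fasn, Scd1, Scd2, Fads1, Fads2, Fads3 and Elovl5), beside 15.7% of all genes. The highest fold changes were those of the 5 desaturases, while the enzymes that make palmitate were near level. The pattern with the highest value in G392E-NS library 2 and the lowest in GFP library 2 was held by 7 of 13 members, including all 5 desaturases.

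Palmitate is made from citrate by Acly, Acaca and Fasn. Fasn, fatty acid synthase, had 485, 461 and 501 CPM in G392E-NS, against 430.2, 415 and 456 CPM in GFP. Each G392E-NS library was above each GFP library by a small margin, and the log2 fold change of 0.15 had a 95% interval of −0.07 to 0.38 (edgeR adjusted p = 0.387). Acaca, acetyl-CoA carboxylase and the committed step, had 229.9, 201 and 184 CPM in G392E-NS, against 201, 185 and 225 CPM in GFP. Its groups overlapped, and the log2 fold change of 0.01 had a 95% interval of −0.26 to 0.28 (edgeR adjusted p = 0.971). Acly, ATP citrate lyase, had a log2 fold change of 0.24 (edgeR adjusted p = 0.238). For Acaca, 30.4% of the 50-base windows occur in other genes, mainly Gm5182.

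The desaturases put double bonds into fatty acids. Scd2 (ENSMUSG00000025203, GRCm38 chromosome 19, 44293674 to 44306864) had 5247, 10556 and 4852 CPM in G392E-NS, against 3580.4, 2572 and 4095 CPM in GFP. Each G392E-NS library was above each GFP library, with library 2 of each group at its far end, and the log2 fold change was 1.01 (SE 0.32, edgeR adjusted p = 0.114). Scd1, its paralog with the same reaction, had 363, 837 and 282 CPM in G392E-NS, against 224, 92.2 and 219 CPM in GFP. Its groups did not overlap either, with a log2 fold change of 1.47 (SE 0.46) and an edgeR adjusted p of 0.106. The transcripts of Scd1 and Scd2 share few 50-base windows with other genes, 4.56% and 3.97%.

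Fads1 and Fads2 put the double bonds of polyunsaturated fatty acids in place, and Fads3 is a related desaturase beside them on chromosome 19. Fads1 had 667, 1265 and 723 CPM in G392E-NS, against 472, 382 and 539 CPM in GFP. Fads2 had 479, 1011 and 560.2 CPM in G392E-NS, against 342, 271 and 434 CPM in GFP. In both genes each G392E-NS library was above each GFP library, and the ratio of Fads1 to Fads2 stayed between 1.24 and 1.41 in all 6. Their log2 fold changes were 0.93 (SE 0.25) and 0.97 (SE 0.29), with edgeR adjusted p of 0.0716 and 0.0949. Fads3, a gene of low counts, had 6.74, 18.5 and 7.30 CPM in G392E-NS, against 3.40, 1.86 and 4.32 CPM in GFP. It had the highest fold change of all members, 1.77 on the log2 scale (SE 0.46, edgeR adjusted p = 0.0625). All 5 desaturases thus had groups that did not overlap and an unadjusted p under 0.05, and 0 of them passed after adjustment in edgeR or limma-voom, while DESeq2 called 4 (Scd2, Fads1, Fads2 and Fads3). All 5 genes lie on chromosome 19, where the log2 fold changes of the other 445 genes tested had their median at 0.041, with 5.39% called higher, close to the 4.79% of all genes.

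The 4 elongases add carbons to fatty acids. Elovl5, which lengthens polyunsaturated fatty acids (ENSMUSG00000032349, GRCm38 chromosome 9, 77917364 to 77984519), rose in G392E-NS and was the 1 member called. It had 218, 301 and 234 CPM in G392E-NS, against 172, 166 and 172 CPM in GFP. The GFP libraries lay close together and below each G392E-NS library, and the log2 fold change was 0.56 (SE 0.13, edgeR adjusted p = 0.0444). Without both libraries 2 it was 0.39 with an edgeR adjusted p of 0.276, and over the 16 alternative settings its adjusted p ranged over 0.00304 to 0.276, with 8 of 16 under the threshold. It passed without G392E-NS library 1 and missed the threshold without any 1 of the other 5 libraries (adjusted p of 0.0568 to 0.173). Elovl6, which takes palmitate to stearate, had 137, 119.7 and 102 CPM in G392E-NS, against 104, 91.2 and 109.9 CPM in GFP. Its groups overlapped, and the log2 fold change of 0.23 had an edgeR adjusted p of 0.322. Elovl1 and Elovl2 had log2 fold changes of 0.26 and 0.01, with groups that overlapped. Lpin1, a phosphatidate phosphatase on the way to triglycerides, was the 1 lipogenic member tested whose value lay below 0, at −0.24 (SE 0.13, edgeR adjusted p = 0.307).

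**Figure D2:**
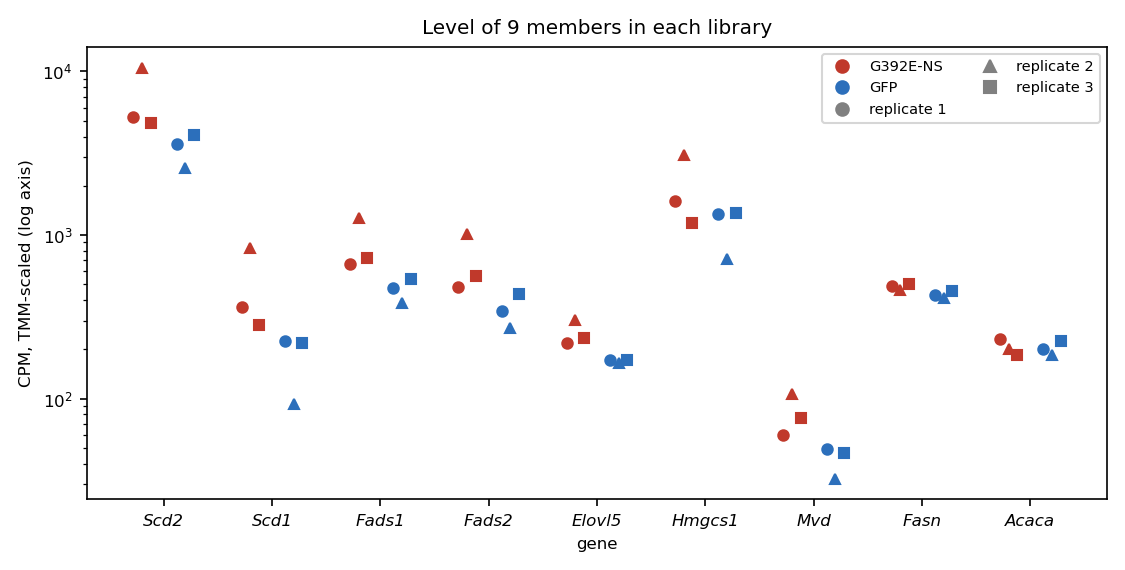
CPM (log axis, scaled by TMM factors) of 9 members in each library, with G392E-NS in red left of GFP in blue and the marker shape giving the replicate. The red points of Scd2, Scd1, Fads1, Fads2, Elovl5, Mvd and, narrowly, Fasn all lie above the blue ones, while those of Hmgcs1 and Acaca overlap, and library 2 is the highest red and the lowest blue point for each gene but Fasn and Acaca.

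Per kilobase of annotated exon, which allows levels of different genes to be compared, Scd2 was the most abundant member. It had 1260.1 ± 583 CPM per kb in G392E-NS and 625 ± 142 CPM per kb in GFP (SD, n = 3 each). Hmgcs1 came next, at 425 ± 216 CPM per kb in G392E-NS and 247 ± 80.1 CPM per kb in GFP. Fads2 and Fads1 followed, at 207 ± 87.0 and 184 ± 68.7 CPM per kb in G392E-NS and 106 ± 24.8 and 96.5 ± 16.3 CPM per kb in GFP. Both genes were read in the same libraries, so these SDs do not measure the difference between them. The ratio of Scd2 to Scd1 counts, in CPM, was 14.4, 12.6 and 17.2 in G392E-NS, against 16.0, 27.9 and 18.7 in GFP.

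Of the 5 regulators, 0 passed in edgeR, where 2 had an unadjusted p under 0.05, or in limma-voom, and 1, Scap, passed in DESeq2. Srebf1 had 164, 205 and 211 CPM in G392E-NS, against 154, 176 and 116 CPM in GFP. The groups overlapped, with GFP library 2 above G392E-NS library 1, and the log2 fold change of 0.38 (SE 0.17) had an edgeR adjusted p of 0.220. Srebf2 had 339.5, 355 and 370.3 CPM in G392E-NS, against 355, 261 and 307 CPM in GFP. Its groups overlapped as well, and its log2 fold change of 0.21 (SE 0.13) had an edgeR adjusted p of 0.378. The table does not divide Srebf1 into its isoforms, and transcript levels do not give the amount of cleaved protein.

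Scap, the escort, had 97.0, 116 and 128 CPM in G392E-NS, against 83.6, 85.6 and 89.6 CPM in GFP. Its groups did not overlap, and the log2 fold change of 0.40 (SE 0.11) had an edgeR adjusted p of 0.0819. Scap shares 985 bases with an unclassified transcript on the opposite strand. Insig1, itself an SREBP target, had 222, 237 and 201 CPM in G392E-NS, against 214, 132 and 183 CPM in GFP. GFP library 2 was again the lowest and G392E-NS library 2 the highest, the groups overlapped, and the log2 fold change of 0.32 (SE 0.17) had an edgeR adjusted p of 0.303. Insig2, its relative, had 25.2, 24.8 and 25.8 CPM in G392E-NS, against 29.2, 26.3 and 27.3 CPM in GFP. Each G392E-NS library was below each GFP library, by a log2 fold change of −0.13 (SE 0.10, edgeR adjusted p = 0.469), where 12.9% of all genes had groups apart in this direction.

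The arms were compared library by library as the mean over members of log2(CPM + 1), each gene centred on its mean over the 6 libraries. The sterol arm stood at 0.17, 0.64 and −0.13 in G392E-NS libraries 1 to 3, against 0.03, −0.67 and −0.04 in GFP libraries 1 to 3. The lipogenic arm stood at 0.12, 0.56 and 0.09 in G392E-NS, against −0.20, −0.46 and −0.11 in GFP. The groups overlapped in the sterol arm and did not overlap in the lipogenic arm, although the group differences were close, at 0.46 and 0.52. The spread between libraries was wider in the sterol arm, with an SD of 0.39 in G392E-NS and 0.39 in GFP, against 0.26 in G392E-NS and 0.18 in GFP for the lipogenic arm.

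The sterol arm minus the lipogenic arm was 0.05, 0.08 and −0.22 in G392E-NS, against 0.23, −0.21 and 0.08 in GFP. These gaps overlapped, and their group means differed by −0.06, less than the SD of 0.17 within G392E-NS and of 0.22 within GFP. Without both libraries 2 the difference was −0.24, larger than both of these SDs, and without G392E-NS library 3 or GFP library 1 it was 0.09. When either of these last libraries was left out, Acacb passed the filter for low counts. The lipogenic arm then had 14 members instead of 13, so the 0.09 is not for the same members. Within the lipogenic arm the roles stood apart. The desaturases were at 0.19, 1.30 and 0.18 in G392E-NS, against −0.42, −1.02 and −0.23 in GFP, a difference of 1.11. Palmitate synthesis was at 0.13, 0.07 and −0.0050 in G392E-NS, against −0.07, −0.16 and 0.04 in GFP, a difference of 0.13. The lipogenic score thus averages a stretch that followed the libraries as the sterol arm did and a stretch that stayed nearly level.

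**Figure D3:**
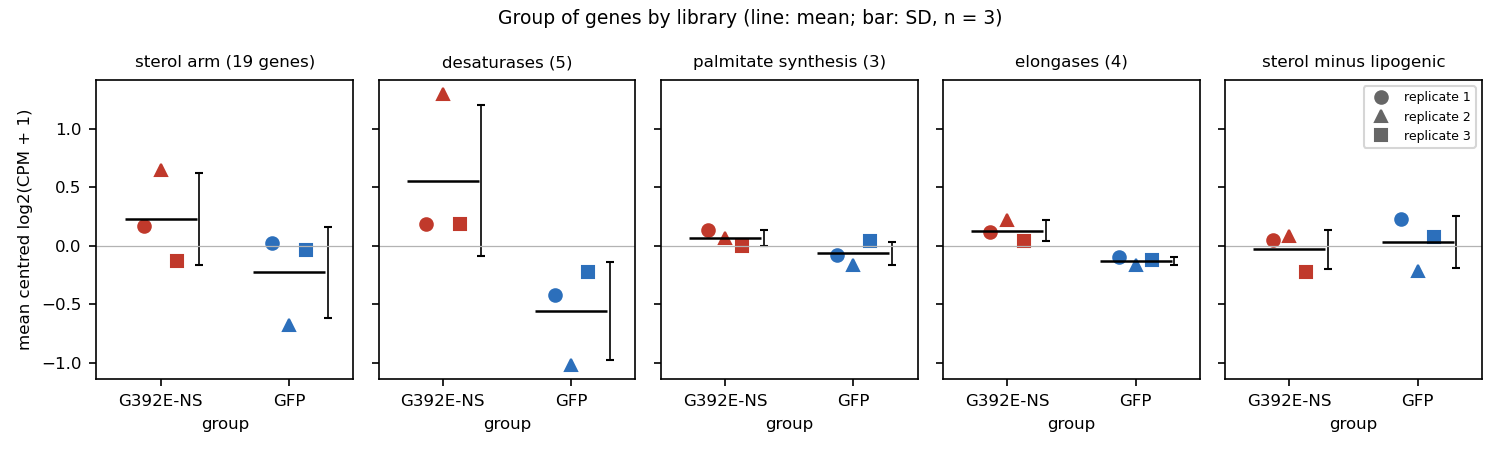
Mean centred log2(CPM + 1) of a group of genes in each library, with G392E-NS left of GFP, the marker shape giving the replicate, the line the group mean and the bar the SD (n = 3). G392E-NS libraries lie above GFP libraries for the desaturases and elongases, and overlap with them for the sterol arm, palmitate synthesis and the sterol minus lipogenic gap. Library 2 lies at the far end in each group for the sterol arm, the desaturases and the elongases.

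Single ratios show the same contrast within each library. Scd2 over Fasn, in CPM, was 10.8, 22.9 and 9.68 in G392E-NS, against 8.32, 6.20 and 8.98 in GFP, so that each G392E-NS library was above each GFP library. Hmgcs1 over Fasn was 3.32, 6.66 and 2.35 in G392E-NS, against 3.11, 1.72 and 2.98 in GFP, and the groups overlapped. Scd2 over Hmgcs1 varied least of these 3 ratios, with 3.25, 3.44 and 4.12 in G392E-NS, against 2.67, 3.61 and 3.01 in GFP, and overlapped as well. Across libraries the ratio of the top desaturase to the top sterol gene was thus steadier than that of either to Fasn.

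The sterol difference shrank when libraries 2 were left out, as it had to. For 18 of 19 sterol members and all 5 desaturases, G392E-NS library 2 was the highest and GFP library 2 the lowest. Leaving out both thus lowers these fold changes whatever the reason, and the size of the fall has no test. Without both libraries 2, an alternative chosen after seeing the data, the median log2 fold change of the sterol arm was 0.0066. Of its 19 members 10 were above 0, and the median of all genes tested was −0.0064. Sqle was then at −0.26, Msmo1 at −0.25 and Hsd17b7 at −0.22, while Mvd was at 0.50, Ebp at 0.41 and Lss at 0.36. The 5 desaturases had a median of 0.46 without both libraries 2, against 1.01 with all 6 libraries, and a range of 0.40 for Scd2 to 0.85 for Fads3. As their groups did not overlap with all 6 libraries, leaving out libraries could not turn their direction. Leaving out 1 library at a time, the sterol median ranged over 0.22, without G392E-NS library 2, to 0.63, without G392E-NS library 3, and it was 0.23 without GFP library 2. The desaturase median ranged over 0.59, without G392E-NS library 2, to 1.21, without G392E-NS library 3. With edgeR, 0 members were called without both libraries 2 (7 at an unadjusted p under 0.05), where 1.60% of all genes were called higher.

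**Figure D4:**
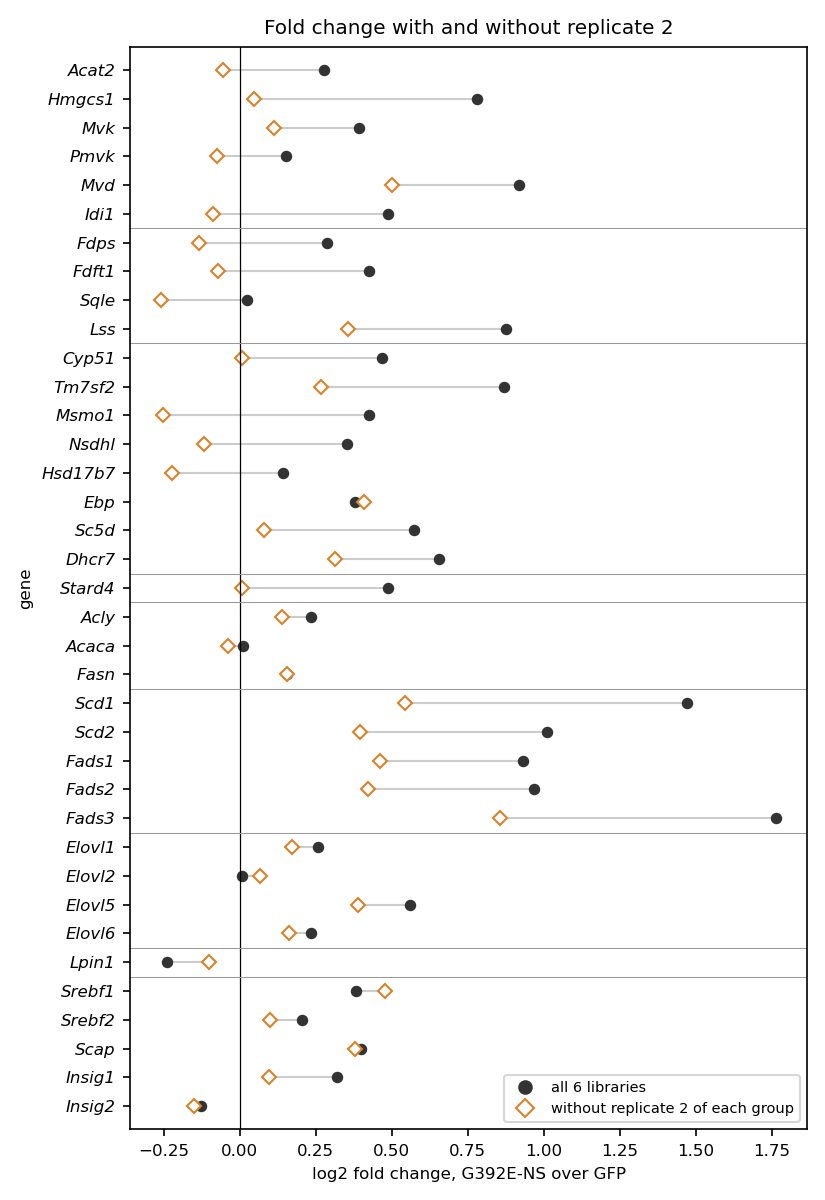
Log2 fold change of G392E-NS over GFP for each of the 37 members tested, with all 6 libraries (filled circles) and without replicate 2 of each group (open diamonds). The sterol members but Ebp move towards 0 or below it, the desaturases move towards 0 to between 0.40 and 0.85, and Fasn, Acaca, Ebp and Scap hardly move.

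Other genes of the same pathways were read from 3 lists. Of 13 genes of sterol synthesis, uptake and SREBP cleavage outside the members, 12 were tested and 0 were called by edgeR or limma-voom, with 2 higher at an unadjusted p under 0.05, 1 called by DESeq2 (Npc1, which exports cholesterol from lysosomes) and a median log2 fold change of 0.30. Npc2, which carries cholesterol out of lysosomes, was at 0.30, and Mbtps1, the site-1 protease that cuts SREBPs, was at −0.14. Their groups overlapped.

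Of 14 other lipogenic genes tested, 5 were called higher and 0 lower, beside 4.79% of all genes called higher. Acss2, which makes cytosolic acetyl-CoA from acetate, averaged 101 ± 51.7 CPM in G392E-NS and 34.9 ± 8.25 CPM in GFP, a log2 fold change of 1.54 (SE 0.33, edgeR adjusted p = 0.0367). Slc25a1, the mitochondrial citrate carrier that feeds Acly, averaged 68.8 ± 13.2 CPM in G392E-NS and 37.8 ± 2.89 CPM in GFP, a log2 fold change of 0.86 (SE 0.15, edgeR adjusted p = 0.0153). Thrsp and Mid1ip1, related proteins that promote lipogenesis, rose by 2.22 and 0.78 on the log2 scale (edgeR adjusted p = 0.0156 and 0.0453). Mid1ip1 lies on chromosome X, as do Ebp and Nsdhl, and the part of the Xist difference in its value cannot be told apart either. Gpam, the first acyltransferase of glycerolipid synthesis, rose by 0.85 (edgeR adjusted p = 0.0464), and Me1, the cytosolic malic enzyme, was at 0.68 without passing (edgeR adjusted p = 0.182). Without both libraries 2, Acss2 still passed (0.87, edgeR adjusted p = 0.0336), whereas Slc25a1, Thrsp, Mid1ip1 and Gpam had adjusted p of 0.108, 0.0548, 0.286 and 0.236. With 1 library left out, Acss2 missed the threshold without any 1 of the GFP libraries (adjusted p of 0.0653 to 0.132), Slc25a1 without GFP library 1 or 2 (0.0809 and 0.0701) and Thrsp without GFP library 1 (0.0739). Gpam and Mid1ip1 passed only without G392E-NS library 1, and had adjusted p of 0.0816 to 0.163 and 0.101 to 0.158 without each of the others.

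The list of sterol sensing and export had 6 tested genes, among them Lpcat3, an enzyme of phospholipids rather than of sterols. Of the 6, 2 were called higher and 0 lower by edgeR and 0 by limma-voom. DESeq2 called 4 higher (Abca1, Abcg1, Lpcat3 and Cyp46a1). Of all genes, edgeR called 4.79% higher, DESeq2 7.87% and limma-voom 3.79%, and edgeR without both libraries 2 called 1.60%. Abcg1, an exporter of sterols, had 88 counts in all 6 libraries and averaged 1.26 ± 0.578 CPM in G392E-NS and 0.186 ± 0.108 CPM in GFP (edgeR adjusted p = 0.0309). Cyp46a1, which turns brain cholesterol into the oxysterol that leaves the brain, had 16.2, 55.1 and 23.9 CPM in G392E-NS, against 6.11, 3.96 and 8.55 CPM in GFP. Its groups did not overlap, with library 2 at the far end in each, and its log2 fold change was 2.35 (SE 0.47, edgeR adjusted p = 0.0278). Without both libraries 2 it was 1.44 (edgeR adjusted p = 0.0456), and it missed the threshold without G392E-NS library 3 or any 1 of the GFP libraries (adjusted p of 0.0509 to 0.115). Abcg1 also passed without both libraries 2 (edgeR adjusted p = 0.0175) and, of the left-out single libraries, only without G392E-NS library 2, with adjusted p of 0.0600 to 0.123 for the others. Abca1, the other main exporter, was at 0.82 (SE 0.28, edgeR adjusted p = 0.134), Lpcat3 at 0.50 and the sterol receptor Nr1h2 at 0.01.

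Markers of cell types were read beside these values. The 10 astrocyte markers, all tested, summed to 8793 to 13918 CPM in G392E-NS and 3839 to 5458 CPM in GFP. Of these, 5 were called higher (Slc1a2, Aldoc, Fgfr3, Atp1b2 and Aldh1l1, by 0.89 to 1.99 on the log2 scale), beside 4.79% of all genes. Aqp4 was the 1 marker below 0, at −0.14 (edgeR adjusted p = 0.861), and its groups overlapped. Slc1a3, the marker with the highest level, was at 0.72 (edgeR adjusted p = 0.0729). For 7 of the 10, G392E-NS library 2 was the highest and GFP library 2 the lowest, as in the sterol arm and the desaturases. Without both libraries 2, edgeR called 4 of the 10 higher (Gfap, Slc1a2, Aldoc and Fgfr3), beside 1.60% of all genes. In that fit 1 marker was lower at an unadjusted p under 0.05, and the lowest log2 fold change of the list was −0.74. The part of astrocyte content in the members' values was not tested. The 10 neuron markers summed to 3107 to 4305 CPM in G392E-NS and 3323 to 3850.0 CPM in GFP, with 0 of 8 tested called by edgeR or limma-voom, 1 called by DESeq2 (Syt1) and 3 higher at an unadjusted p under 0.05. The levels of Map2, Dcx and Tubb3 overlapped between the groups. Groups did not overlap for 3 of the 8 tested, all higher in G392E-NS, beside 15.7% of all genes.

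Markers of the oligodendrocyte lineage summed to 3032 to 5370 CPM in G392E-NS and 3458 to 4135 CPM in GFP, where Pdgfra and Mog rose among 9 tested, and without both libraries 2 edgeR called 0 of the 9 (5 higher at an unadjusted p under 0.05). Progenitor markers summed to 3799 to 4826 CPM in G392E-NS and 4037 to 4672 CPM in GFP, and of 10 tested Prom1 rose and Nes fell, while without both libraries 2 the genes called were Prom1 and Hes5. Of all genes, edgeR called 4.79% higher and 1.36% lower with all 6 libraries. Without both libraries 2 it called 1.60% higher and 0.321% lower. Microglial markers summed to at most 0.326 CPM in G392E-NS and 0.351 CPM in GFP, with Csf1r and C1qa at 0 counts. Endothelial and mesenchymal markers summed to 2.83 to 4.84 CPM in G392E-NS and 1.15 to 1.28 CPM in GFP, with Cdh5, Cldn5, Dcn and Lum at 0 counts, and of 2 tested Twist1 rose, with counts in G392E-NS alone. Serpini1, the endogenous neuroserpin gene, had 5.72 ± 0.924 CPM in G392E-NS and 4.69 ± 0.483 CPM in GFP (SD, n = 3 each; log2 fold change 0.29, edgeR adjusted p = 0.419), which does not check the introduced gene.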

How the data were processed

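Total RNA from 6 libraries was sequenced, 3 of G392E-NS and 3 of GFP cells. The authors deposited raw counts per Ensembl gene, whole numbers with no normalization. Per the submitters' processing notes, GRCm38 and the tools TopHat2 2.0.12, HTSeq 0.6.1, R 3.2.2 and DESeq2 1.4.5 were used, with no role stated. The annotation release, strand setting and treatment of multi-mapped reads were not given in the sources used here. These settings matter for overlapping genes and near copies.

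GENCODE M21 (GRCm38) paired 37607 of 39179 IDs with a symbol. Counts were tested with edgeR 4.0.16 (filterByExpr, TMM scaling, quasi-likelihood F test, no covariate) in R 4.3.3, with p adjusted over 13775 genes at a threshold of 0.05. SEs were derived from each fold change with its F value. The code was tested on simulated data. Within a group, each pair of libraries differed by more than sampling noise (chi-square per degree of freedom 8.02 to 56.4), and the biological coefficient of variation was 0.159. Between groups these values were 33.7 to 130. G392E-NS library 1 had 33.8, 50.6 and 33.7 against GFP libraries 1 to 3. Against G392E-NS libraries 2 and 3, of its own group, it had 56.4 and 37.0. Counting error is small at these depths, and PCR copies are not independent molecules.

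The members, lists and tests were chosen with earlier results of these data known, and roles were assigned after the values were seen. Values in every library are given for the called member, the regulators and 9 fixed enzymes, and for some others chosen after their values were seen. Of other lists, called genes and up to 3 of the highest mean CPM are named, and 1 gene is not reported here. Other settings tried were DESeq2 1.42.0, voom (limma 3.58.1), scaling by RLE, by the upper quartile or by total counts, 2 other filters, the replicate number as a block, thinned counts, other make-ups of the arms, another pseudocount (0.1 CPM) and left-out libraries. Promoters came from RefSeq, and shared 50-base windows from the GENCODE transcripts.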

Additional observations from a re-analysis of the deposited data

How the results depend on the processing

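Over all genes, 847 were called in either direction with edgeR, against 1450 with DESeq2, 1579 with no low-count filter, 267 with the replicate block, 263 without both libraries 2 and 242 to 1373 with 1 library left out. The members called numbered 10 with DESeq2 and 10 with no low-count filter, 0 with total-count scaling, the replicate block or without both libraries 2, and 0 to 6 with 1 library left out, the 6 coming without G392E-NS library 1 (Mvd, Elovl5, Fads1, Fads2, Fads3 and Scap). The unfiltered fit called Mvd, Lss, Tm7sf2, Dhcr7, Elovl5 and all 5 desaturases. Same-numbered libraries had deviations from their group means correlated at 0.034, −0.383 and −0.255. With 3 libraries per group and no reference for these values, they cannot show whether same-numbered libraries were prepared together. The labels do not say so either, and the main fit treats the libraries as unpaired.

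The sterol median was 0.0066 without both libraries 2. The gap between the arms ranged over −0.24, without both libraries 2, to 0.09, where Acacb was counted in the lipogenic arm, and had no test. Signs changed for these members. Acaca was −0.051 with total-count scaling, −0.0068 with no filter, −0.039 without both libraries 2, and −0.099 to 0.086 with 1 library left out. Elovl2 was −0.052 with total-count scaling, −0.0076 with no filter and −0.079 to 0.057 with 1 left out. Sqle was −0.042 with total-count scaling, −0.26 without both libraries 2 and −0.12 to 0.17 with 1 left out, and Hsd17b7 was −0.22 without both and −0.070 to 0.37 with 1 left out. Without both libraries 2, Acat2 was −0.056, Fdft1 −0.070, Fdps −0.13, Idi1 −0.089, Msmo1 −0.25, Nsdhl −0.12 and Pmvk −0.074. The cause of these shifts was not tested. Depth limits Acacb and Abcg1.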
